A study of Mus musculus with 2 samples.

Results

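The CC chemokine genes Ccl2, Ccl7, Ccl3, Ccl4, Ccl5, Ccl6 and Ccl9 and the receptor genes Ccr1 and Ccr2 were followed by symbol through single-cell RNA sequencing of mouse pancreatic tumors. They are 9 of the 32285 genes counted. All 9 had more than 50 unique molecular identifiers (UMIs, tags that each mark 1 captured RNA molecule) in both libraries. Both groups were male C57BL/6J mice, 5 to 6 weeks old at supply, with orthotopic tumors grown from K210 cells. K210 is a single tumor cell line derived from an engineered mouse with Trp53 fl/fl and Pdx1-Cre, in which Cre acts in the pancreatic lineage. The control group received phosphate-buffered saline (PBS). The other group received cmExoaCD11b, exosomes from mouse embryonic fibroblasts that carried IL-12 mRNA, the STING agonist cGAMP (5 µg per mouse) and surface antibodies to CD11b. Immune cells of 3 mice per group were pooled 48 h after treatment into 1 library. There is therefore 1 library per condition, no difference between them was tested, and all intervals given here are 95% intervals for counting error only, with no check against the spread between mice.

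CC chemokines are small secreted proteins that attract leukocytes through G protein-coupled receptors. Ccl2 and Ccl7 act through Ccr2, which brings monocytes out of the bone marrow and into inflamed tissue and tumors. Ccl3 and Ccl4 are macrophage inflammatory proteins, of which Ccl3 acts through Ccr1, and Ccl5 is made by activated T cells and natural killer cells. Ccl6 and Ccl9 are rodent chemokines of myeloid cells that act through Ccr1.

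The 7 ligand genes lie on chromosome 11 and both receptor genes on chromosome 9 of GRCm38. The files do not name their genome build, so these are positions in the GENCODE annotation of GRCm38, whose gene identifiers matched those of all 9 genes. Related genes are neighbors. Ccl2 (chr11:82035571-82037453) and Ccl7 (chr11:82045712-82047525) are 8.3 kb apart on the plus strand. Ccl9 (chr11:83572919-83578636) and Ccl6 (chr11:83587882-83593087) are 9.2 kb apart on the minus strand, and Ccl5 (chr11:83525778-83530518) lies beside them. Ccl3 (chr11:83647844-83649355, minus strand) and Ccl4 (chr11:83662584-83664683, plus strand) face away from each other 13.2 kb apart. Ccr1 (chr9:123962124-123968692, minus strand) and Ccr2 (chr9:124101950-124113557, plus strand) are 133.3 kb apart.

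Because the results below separate Ccl3 from Ccl4 in neutrophils and lymphocytes, their coding sequences in the GENCODE transcripts were compared. Each has 279 coding bases, 193 are identical in the alignment, and the identity is 68.0%. The longest run of bases shared by the Ccl3 and Ccl4 transcripts was 9. Ccl6 and Ccl9 shared a run of 25 bases, with an identity of 65.1%. For Ccl2 and Ccl7 the run was 23 bases and the identity 51.2%, and for Ccr1 and Ccr2 16 bases and 61.9%. Identity here is over the whole alignment, gaps included. Ccl2 has 447 coding bases and Ccl7 has 294, and 229 of their 294 aligned bases were identical. The same count was 193 of 274 for Ccl3 and Ccl4, 242 of 348 for Ccl6 and Ccl9 and 707 of 1048 for Ccr1 and Ccr2. How the counting treated a read that could come from either gene of a pair was not tested.

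Promoters of Ccl3, Ccl6, Ccl9 and Ccr1 are shown because all 4 genes were lower in neutrophils of the cmExoaCD11b library. They are RefSeq sequences of GRCm38.p6, from 250 bases before to 50 bases after the start, and Ccr2 is the only other gene of the 9 that was matched. Motifs were searched on both strands, and capitals mark the matches.
Ccl3, minus strand of chr11:83649329-83649628: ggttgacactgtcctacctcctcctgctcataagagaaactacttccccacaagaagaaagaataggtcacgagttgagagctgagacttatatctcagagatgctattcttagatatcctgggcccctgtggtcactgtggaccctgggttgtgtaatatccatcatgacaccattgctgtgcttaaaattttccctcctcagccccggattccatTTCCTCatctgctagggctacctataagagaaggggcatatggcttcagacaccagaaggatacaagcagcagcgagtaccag
Ccl6, minus strand of chr11:83593038-83593337: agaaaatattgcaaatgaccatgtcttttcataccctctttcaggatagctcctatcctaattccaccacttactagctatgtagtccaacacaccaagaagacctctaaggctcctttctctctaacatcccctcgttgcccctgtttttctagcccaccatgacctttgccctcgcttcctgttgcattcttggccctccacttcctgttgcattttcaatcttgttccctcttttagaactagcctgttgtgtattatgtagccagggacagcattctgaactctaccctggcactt
Ccl9, minus strand of chr11:83578587-83578886: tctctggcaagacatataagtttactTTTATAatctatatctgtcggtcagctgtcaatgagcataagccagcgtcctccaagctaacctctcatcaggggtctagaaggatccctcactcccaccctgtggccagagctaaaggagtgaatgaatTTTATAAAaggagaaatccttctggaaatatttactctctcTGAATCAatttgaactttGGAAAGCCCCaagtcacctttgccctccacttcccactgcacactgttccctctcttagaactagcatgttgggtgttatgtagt
Ccr1, minus strand of chr9:123968643-123968942: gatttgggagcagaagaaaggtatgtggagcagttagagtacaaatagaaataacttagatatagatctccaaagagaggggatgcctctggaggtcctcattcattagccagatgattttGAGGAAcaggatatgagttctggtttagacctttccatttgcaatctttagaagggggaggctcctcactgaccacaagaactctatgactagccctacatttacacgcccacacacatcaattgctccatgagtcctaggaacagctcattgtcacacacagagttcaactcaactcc
The letters GAGGAA, of the kind bound by the myeloid factor PU.1, occurred once in Ccl3, on the opposite strand from base -33 to -28 relative to the start, and once in Ccr1, from -129 to -124. They occur in 28.3% of 32851 mouse promoters of the same length. In Ccl9 the AP-1 letters TGANTCA, present in 7.81% of promoters, lay from -53 to -47 and read the same on both strands. The NF-kB type motif, present in 5.56%, lay on the opposite strand of Ccl9 from -35 to -26. Ccl9 also held TATAAA, present in 13.6%, at -92 on the gene's strand and at -94 and -224 on the other, and the matches at -92 and -94 overlap. The letters TTGCNNAA (C/EBP type, 10.8%) and the interferon-response type motif (3.44%) were in none of these windows, and the Ccl6 and Ccr2 windows held none of the 6 motifs. A match is a run of letters and was not tested as a binding site.

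The kept cells numbered 6840 in the PBS library and 7082 in the cmExoaCD11b library, with 50187092 and 62097302 UMIs and medians of 3457 and 4100.5 UMIs per cell, and 16 barcodes occurred in both libraries. Cells were assigned to classes by how many markers of a lineage they held above the level that free RNA could give. Neutrophils were the largest class, with 3087 and 3063 cells. There were 537 and 646 immature neutrophils, 154 and 205 monocytes, 259 and 71 macrophages, 59 and 105 dendritic cells, 143 and 360 CD8 T cells, 134 and 232 CD4 T cells, 121 and 293 other T cells, and 209 and 234 B cells. Natural killer cells numbered 31 and 105. The 9 macrophage markers, of which the gate itself required 3, summed to 25100 and 14100 CPM in macrophages and to 253 and 58.6 CPM in neutrophils. Cells that passed no gate made up 24.7% and 16.5% of the libraries, and 29.2% and 16.6% of these held 2 neutrophil markers, 1 short of the gate. Cells that passed gates of 2 lineages, 308 and 440, were left out of the classes.

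CPM here is counts per 1000000 UMIs of the class. A level below is the gene's UMIs summed over the cells of a class, in CPM, with the PBS library first. A ratio is the cmExoaCD11b level over the PBS level. Classes are ranked by level only among those with at least 50 cells in the library, since the smallest classes can stand above them on few UMIs. The 7 and 19 erythroid cells had Ccl3 at 4760 and 1000 CPM, from 97 and 43 UMIs, and Ccl6 at 1720 and 628 CPM, from 35 and 27 UMIs. The 5 and 4 fibroblasts had Ccl2 at 729 and 2520 CPM and Ccl7 at 2510 and 2330 CPM. The free RNA of each library, read from empty droplets, is the background. Empty droplets of PBS held Ccl2 at 624, Ccl3 at 2250, Ccl4 at 2000, Ccl5 at 414 and Ccl6 at 1020 CPM, and those of cmExoaCD11b held them at 183, 820, 1310, 686 and 416 CPM. Free RNA thus differed between the libraries in the same direction as the cells for each of the 9 genes: its ratio was 0.293 for Ccl2, 0.257 for Ccl7, 0.365 for Ccl3, 0.654 for Ccl4, 1.65 for Ccl5, 0.407 for Ccl6, 0.416 for Ccl9, 0.720 for Ccr1 and 1.62 for Ccr2.

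Summed over all kept cells, 6 ligands and Ccr1 were lower in the cmExoaCD11b library, and Ccl5 and Ccr2 were higher. The monocyte attractants differed most, with Ccl2 at 294 and 69.5 CPM (ratio 0.236, 0.228 to 0.244) and Ccl7 at 79.7 and 17.4 CPM (0.218, 0.204 to 0.233). Ccl9 was at 198 and 62.4 CPM (0.315, 0.303 to 0.327), Ccl3 at 1830 and 689 CPM (0.376, 0.371 to 0.380) and Ccl6 at 691 and 305 CPM (0.441, 0.434 to 0.449). Ccl4 moved least among the ligands, at 1150 and 907 CPM (0.786, 0.777 to 0.795). Ccl5 was at 438 and 892 CPM (2.03, 2.0 to 2.07). Among the receptors, Ccr1 was at 354 and 262 CPM (0.740, 0.725 to 0.756) and Ccr2 at 37.9 and 53.5 CPM (1.41, 1.33 to 1.49). These sums mix the number of cells of a class with the RNA per cell, so the classes are given next. In the small plasma cell class, with 36 and 87 cells, and the epithelial class, with 52 and 32 cells, none of the 9 genes was above the 279 CPM of Ccl3 in PBS epithelial cells.

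**Figure D1:**
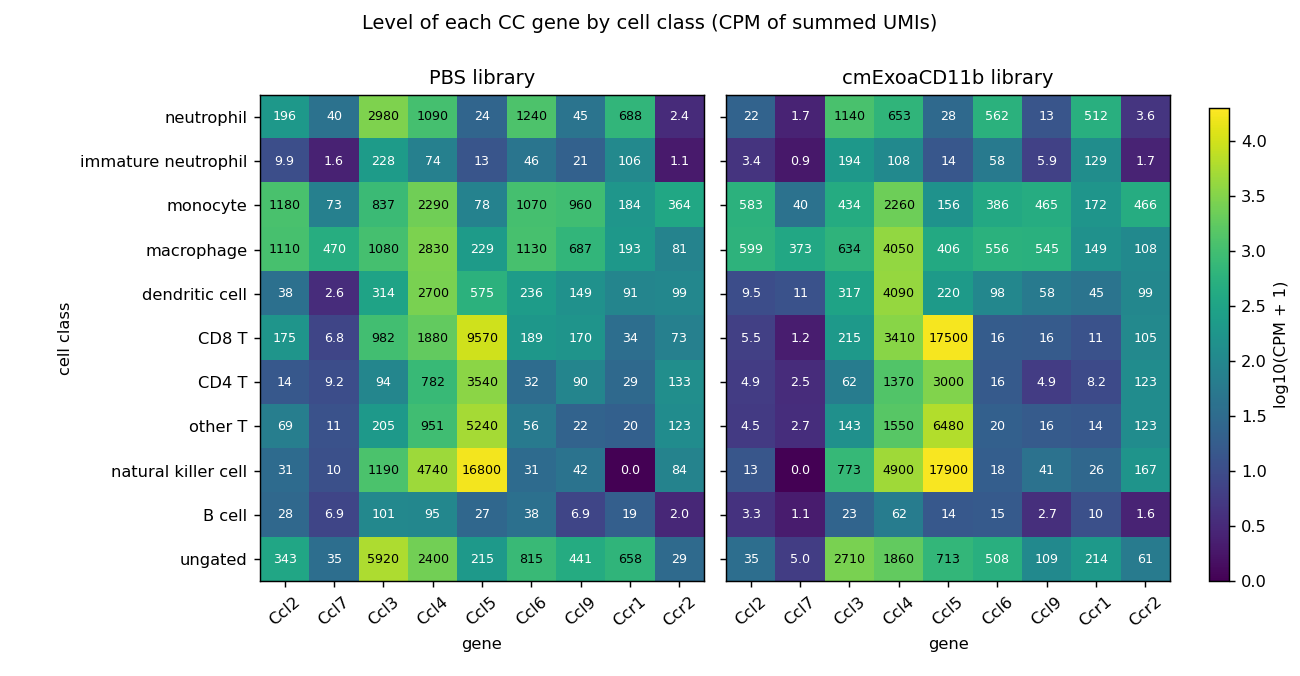
Level of each of the 9 CC genes (columns) in 10 cell classes and the cells that passed no gate (lines), in CPM of summed UMIs, for the PBS library on the left and the cmExoaCD11b library on the right, with color on a log10(CPM + 1) scale. Ccl5 reached 9570 and 17500 CPM in CD8 T cells against 26.6 and 14.3 CPM in B cells, while Ccl2 was highest in monocytes and macrophages and Ccl7 in macrophages among the classes drawn, which leave out fibroblasts and other small classes.

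Ccl2, the main ligand of Ccr2, had its highest levels in mononuclear phagocytes among the classes with at least 50 cells. In PBS the order of levels was led by monocytes at 1180 CPM and macrophages at 1110 CPM, whose intervals overlap, followed by neutrophils at 196 CPM. In cmExoaCD11b macrophages at 599 CPM and monocytes at 583 CPM led, again with overlapping intervals, and neutrophils followed at 22.5 CPM. The ratio was 0.495 (0.465 to 0.527) in monocytes, 0.542 (0.488 to 0.601) in macrophages and 0.115 (0.104 to 0.126) in neutrophils. Among classes with at least 50 cells monocytes and macrophages thus stood first in both libraries, at lower levels in cmExoaCD11b.

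The share of cells with Ccl2 moved less than the level. After each cell was thinned to 1000 UMIs, so that depth does not set the share, 31.4% (24.1 to 39.4) and 28.9% (22.7 to 35.6) of monocytes had a Ccl2 UMI, and so did 31.1% (25.5 to 37.2) and 25.8% (15.8 to 38.0) of macrophages. In neutrophils the shares were 5.51% (4.73 to 6.39) and 1.84% (1.39 to 2.39). B cells, which are not known as a source of Ccl2, gave 2.96% and 0.429%, and their median depths of 3515 and 4624.5 UMIs are close to the 3423 and 3981 of neutrophils. Unthinned, the Ccl2 shares were 61.0% and 58.5% in monocytes, 13.5% and 4.86% in neutrophils and 13.4% and 2.56% in B cells. The unthinned shares of neutrophils and B cells were thus alike in PBS.

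Of all Ccl2 UMIs in kept cells, macrophages held 26.4% in PBS and 9.24% in cmExoaCD11b, and monocytes 17.4% and 37.7%. Neutrophils held 20.8% and 11.5%, and cells with markers of 2 lineages held 20.4% and 34.9%. Between the libraries the macrophage class went from 259 to 71 cells, and how far this set the shares was not tested.

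Ccl7, the neighbor of Ccl2, was the more restricted ligand. Among classes with at least 50 cells macrophages led both libraries at 470 and 373 CPM (ratio 0.793, 0.691 to 0.907), ahead of monocytes at 73.0 and 40.5 CPM (0.554, 0.432 to 0.710). Neutrophils had 40.4 and 1.67 CPM (0.0414, 0.0289 to 0.0576), but 459 of the 634 PBS UMIs lay in 1 cell. Without the top cell of each library the log2 ratio in neutrophils was -2.86 in place of -4.60. Among thinned macrophages 20.9% (16.0 to 26.4) and 18.2% (9.76 to 29.6) had a Ccl7 UMI, against 1.10% and 0.302% of neutrophils. In macrophages of cmExoaCD11b 39.1% of the Ccl7 UMIs came from 1 cell, and without the top cells the log2 ratio in macrophages was -0.88 in place of -0.33.

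Ccl2 and Ccl7 occurred in the same macrophages. In PBS 43.0% (31.9 to 54.7) of macrophages with Ccl2 also had Ccl7, against 10.9% (6.66 to 16.4) of those without it. In cmExoaCD11b the shares were 52.9% (27.8 to 77.0) and 6.12% (1.28 to 16.9).

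**Figure D2:**
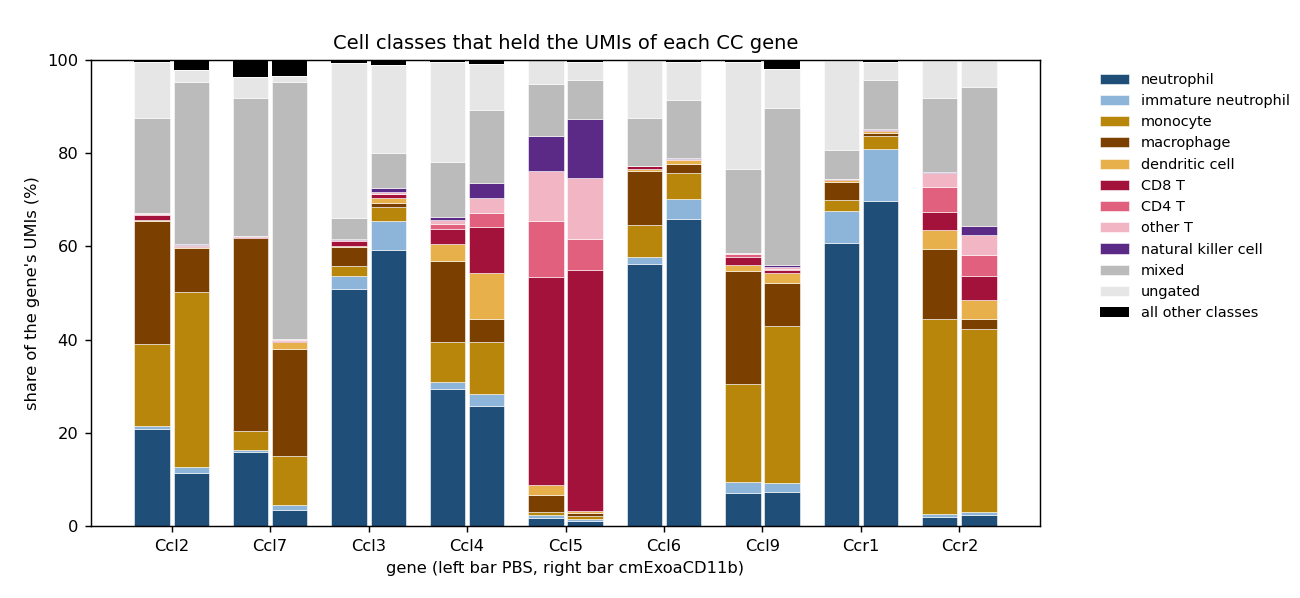
Share of each gene's UMIs (percent) held by each cell class among the kept cells, with the PBS library as the left bar and the cmExoaCD11b library as the right bar of each pair, and all other classes in black. Neutrophils held 50.9% and 59.2% of Ccl3 and 60.8% and 69.8% of Ccr1, and CD8 T cells held 44.5% and 51.7% of Ccl5.

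Ccl3, a ligand of Ccr1, was chiefly a neutrophil transcript in these tumors. PBS neutrophils had 2980 CPM (2960 to 3010) and cmExoaCD11b neutrophils 1140 CPM (1130 to 1160), a ratio of 0.383 (0.377 to 0.389). Both were the highest levels in their library among gated classes with at least 50 cells. Immature neutrophils, defined by granule genes such as Ngp, Camp and Ltf, had 228 and 194 CPM (0.848, 0.803 to 0.895). The ratio was 0.519 (0.482 to 0.558) in monocytes, from 837 to 434 CPM, and 0.587 (0.530 to 0.649) in macrophages, from 1080 to 634 CPM. Dendritic cells were at 314 and 317 CPM (1.01, 0.862 to 1.19), and without the top cell of each library, which held 42.0% of the PBS UMIs, their log2 ratio was 0.38. In immature neutrophils the direction turned, to a log2 ratio of 4.88, when free RNA was subtracted. That step took away nearly all of their 228 CPM in PBS, so the size of this value has little meaning. Ccl3 was thus lower in neutrophils, monocytes and macrophages of cmExoaCD11b, by different factors. Apart from neutrophils, these classes stood below the empty droplets' 2250 and 820 CPM, whose ratio was 0.365. The part of free RNA in them was not tested.

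A smaller share of neutrophils carried Ccl3 in cmExoaCD11b. Among thinned neutrophils 49.0% (47.2 to 50.8) had a Ccl3 UMI in PBS and 29.1% (27.5 to 30.8) in cmExoaCD11b, against 10.3% (6.52 to 15.4) and 1.72% (0.470 to 4.34) of B cells. The cells that passed no gate had the highest Ccl3 level of all, 5920 and 2710 CPM (ratio 0.458, 0.446 to 0.469), and held 33.1% and 18.8% of its UMIs. Their 9 neutrophil markers summed to 9350 and 8190 CPM, against 169000 and 201000 CPM in the neutrophil class. With the gate lowered to 2 markers, chosen after seeing the data, the log2 ratio of Ccl3 in neutrophils was -1.43 in place of -1.38.

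With fewer Ccl3-positive neutrophils in cmExoaCD11b, the top cells held more of its UMIs. The 10% of thinned neutrophils with most Ccl3 held 59.4% of its UMIs in PBS and 80.1% in cmExoaCD11b, and the highest single thinned cell had 93 and 105 UMIs. Ccl6 in the same neutrophils went from 58.6% to 67.6% and Ccr1 from 39.1% to 39.5%. Such a share depends on how many cells hold any UMI of the gene. Thinned neutrophils with Ccl3 held means of 8.39 UMIs in PBS and 6.81 in cmExoaCD11b. When only the ranked-UMI cut-off chose the cells, leaving the deepest 675 and 989 neutrophils, Ccl3 was at 1100 and 584 CPM, so the level in this class depends on which droplets are counted as cells.

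Ccl4, the neighbor of Ccl3, differed from Ccl3 in the classes with the highest level and, in some classes, in its direction. Neutrophils still held more Ccl4 UMIs than any other class, 17060 of 57873 in PBS and 14475 of 56302 in cmExoaCD11b. Neutrophils were lower in cmExoaCD11b, at 1090 and 653 CPM (ratio 0.601, 0.588 to 0.615). Both levels were below the empty droplets' 2000 and 1310 CPM, whose ratio was 0.654, and the part of free RNA was not tested. Dendritic cells were higher, at 2700 and 4090 CPM (1.52, 1.44 to 1.60), and so were macrophages, at 2830 and 4050 CPM (1.43, 1.37 to 1.49). Monocytes were at 2290 and 2260 CPM, with a ratio of 0.987 and an interval of 0.951 to 1.02. Immature neutrophils were at 73.5 and 108 CPM (1.47, 1.35 to 1.60), below the empty droplets, and the log2 ratio was -0.01 in place of 0.56 when cells of 2 lineages were kept.

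The T cell classes had higher Ccl4 in cmExoaCD11b. CD8 T cells had 1880 and 3410 CPM (1.81, 1.72 to 1.91), CD4 T cells 782 and 1370 CPM (1.75, 1.59 to 1.93) and other T cells 951 and 1550 CPM (1.62, 1.46 to 1.81). Natural killer cells had 4740 and 4900 CPM (1.03, 0.933 to 1.15), from 31 PBS cells. In CD4 T cells of cmExoaCD11b 583 of the 1681 Ccl4 UMIs lay in 1 cell, and without the top cells the log2 ratio was 0.41 in place of 0.81. Keeping cells of 2 lineages gave -0.02 in CD4 T cells. In CD8 T cells the direction turned with the ranked-UMI cut-off alone, where the log2 ratio was -0.29 over 54 and 46 cells in place of 0.86 over 143 and 360. Thinned CD4 T cells had means of 1.12 and 1.19 Ccl4 UMIs per cell. With the cells and gates used here, Ccl4 thus stood lower in neutrophils and higher in CD8 T cells, macrophages and dendritic cells. The higher level in CD4 T cells rested in large part on 1 cell.

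The shares of cells with Ccl4 followed the level in neutrophils and did not follow it in every class with a higher level. They were 27.3% (25.7 to 28.9) and 19.3% (17.9 to 20.8) of thinned neutrophils, and 48.3% (39.8 to 56.8) and 58.8% (53.5 to 64.0) of thinned CD8 T cells, whose intervals overlap. Dendritic cells gave 45.8% and 49.5%, CD4 T cells 23.9% (16.9 to 32.0) and 19.9% (15.0 to 25.7) and other T cells 27.6% (19.7 to 36.7) and 25.4% (20.4 to 31.0). Macrophages gave 51.6% (45.2 to 57.9) in PBS and a slightly lower share in cmExoaCD11b, with an interval of 37.4 to 62.6. B cells gave 8.87% (5.34 to 13.7) and 7.73% (4.64 to 11.9). Among CD8 T cells the mean number of Ccl4 UMIs in a thinned cell that had any went from 3.90 to 6.36. The difference in the CD8 T level was therefore larger in UMIs per positive cell than in the share of positive cells.

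**Figure D3:**
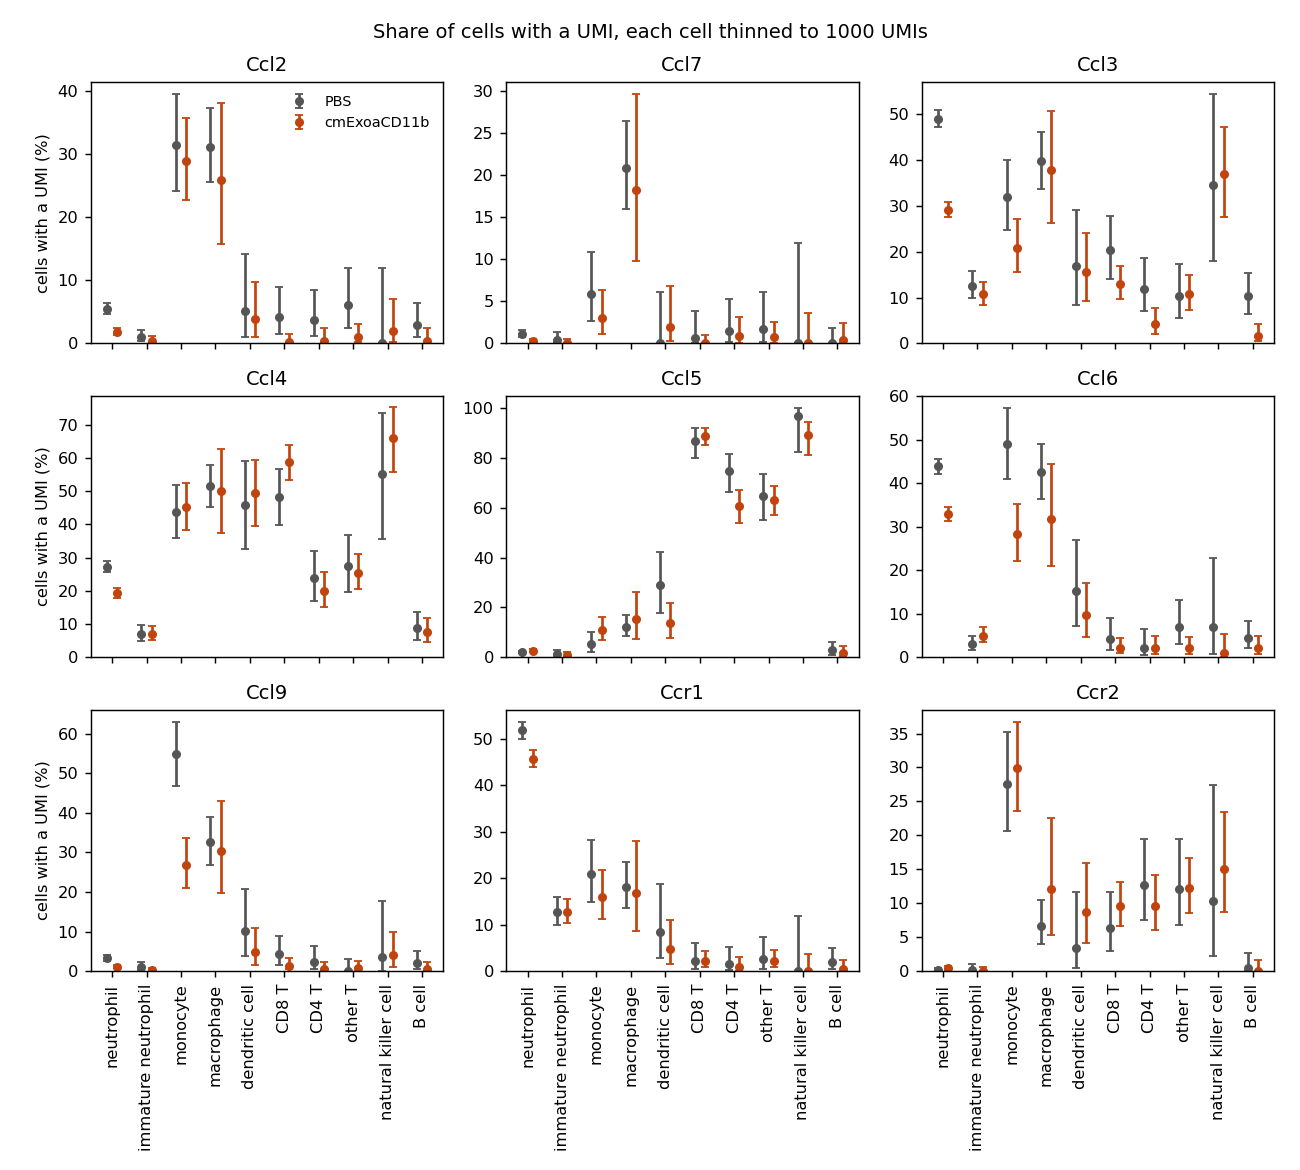
Share of cells with at least 1 UMI of a gene (percent, cells thinned to 1000 UMIs) by cell class, with the PBS library in grey and the cmExoaCD11b library in orange and 95% Clopper-Pearson intervals as bars. Neutrophils with Ccl3 went from 49.0% to 29.1% and monocytes with Ccl9 from 54.9% to 26.9%, while the B cells, shown as background, had 10.3% and 1.72% for Ccl3.

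Neutrophils that held Ccl3 held Ccl4 more often. In PBS 40.1% (37.6 to 42.7) of thinned neutrophils with Ccl3 had Ccl4 against 15.0% (13.2 to 16.9) without it, and in cmExoaCD11b 38.6% (35.3 to 41.9) against 11.4% (10.1 to 12.9). Macrophages gave 74.3% (64.6 to 82.4) against 36.6% (29.0 to 44.8) in PBS and 76.0% against 34.1% in cmExoaCD11b. Among CD8 T cells the shares were 69.0% (49.2 to 84.7) against 43.0% in PBS and 67.4% against 57.6% (51.9 to 63.1) in cmExoaCD11b. The intervals lie apart in neutrophils and macrophages and overlap in CD8 T cells.

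**Figure D4:**
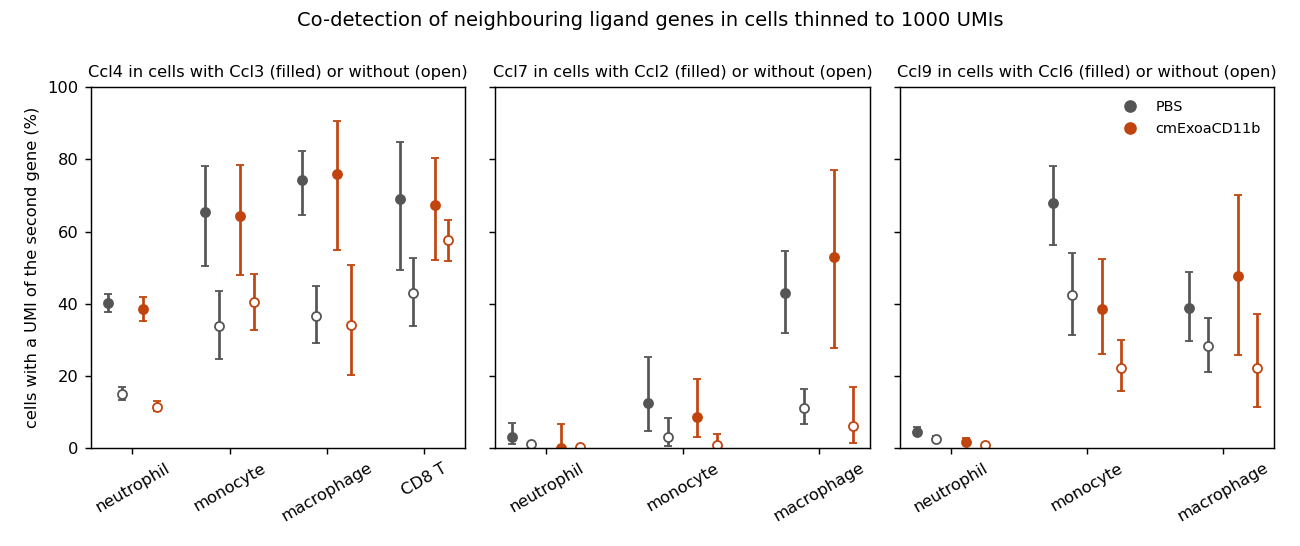
Share of thinned cells (percent) with a UMI of the second gene of a pair, in cells with a UMI of the first gene (filled points) and without one (open points), by class and library, with 95% intervals. In PBS neutrophils Ccl4 was found in 40.1% of cells with Ccl3 and 15.0% of cells without it.

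Ccl5, a ligand of Ccr1, was the lymphocyte member of the group. PBS CD8 T cells had 9570 CPM (9390 to 9770) and cmExoaCD11b CD8 T cells 17500 CPM (17300 to 17700), a ratio of 1.83 (1.79 to 1.87). Natural killer cells were at 16800 and 17900 CPM (1.06, 1.01 to 1.12), other T cells at 5240 and 6480 CPM (1.24, 1.18 to 1.30) and CD4 T cells at 3540 and 3000 CPM (0.847, 0.806 to 0.891). With cells of 2 lineages kept, the log2 ratio in CD4 T cells was 0.03 in place of -0.24, and with the ranked-UMI cut-off alone that in other T cells was -0.06 in place of 0.31. CD8 T cells and natural killer cells did not differ in level beyond their intervals in cmExoaCD11b. CD8 T cells held 44.5% and 51.7% of all Ccl5 UMIs, natural killer cells 7.33% and 12.5%, other T cells 10.7% and 13.1%, and CD4 T cells 12.2% and 6.64%. The CD8 T class also went from 143 to 360 cells.

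Most CD8 T cells carried Ccl5 in both libraries, so the difference was in its amount. The shares of thinned cells with a UMI were 86.7% (80.0 to 91.8) and 88.8% (85.1 to 91.9), against 2.96% and 1.72% of B cells. The mean in a cell with Ccl5 was 15.9 and 22.3 UMIs of 1000. CD4 T cells gave 74.6% (66.4 to 81.7) and 60.6% (54.0 to 67.0).

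Outside the lymphocytes Ccl5 was low. Monocytes were at 78.1 and 156 CPM (1.99, 1.66 to 2.39) and macrophages at 229 and 406 CPM (1.77, 1.54 to 2.04), while dendritic cells were at 575 and 220 CPM (0.382, 0.329 to 0.444). Empty droplets held Ccl5 at 414 and 686 CPM, and the part of free RNA in these phagocyte values was not tested.

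Ccl6, a chemokine of neutrophils and macrophages, was lower in neutrophils, monocytes and macrophages of cmExoaCD11b. Neutrophils were at 1240 and 562 CPM (0.452, 0.442 to 0.463), monocytes at 1070 and 386 CPM (0.359, 0.334 to 0.386) and macrophages at 1130 and 556 CPM (0.494, 0.443 to 0.549). Among classes with at least 50 cells neutrophils led both libraries, and they held 56.3% and 65.8% of Ccl6 UMIs, and in cmExoaCD11b their interval overlapped that of macrophages. The shares of thinned cells with Ccl6 were 43.9% (42.1 to 45.6) and 32.9% (31.2 to 34.6) of neutrophils, 49.0% (40.9 to 57.2) and 28.4% (22.2 to 35.1) of monocytes and 42.5% and 31.8% of macrophages, against 4.43% and 2.15% of B cells. Immature neutrophils were at 45.7 and 58.4 CPM (1.28, 1.14 to 1.43), under the level of the empty droplets, and the log2 ratio turned to -0.12 when cells of 2 lineages were kept.

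Ccl9, the neighbor of Ccl6, was the monocyte and macrophage member of this pair. Monocytes led the larger classes of PBS at 960 CPM and had 465 CPM in cmExoaCD11b (0.485, 0.452 to 0.520). Macrophages were at 687 and 545 CPM (0.794, 0.709 to 0.887), and in cmExoaCD11b the intervals of the 2 classes overlapped. Neutrophils had 44.9 and 12.7 CPM (0.282, 0.245 to 0.324) and immature neutrophils 20.8 and 5.87 CPM (0.282, 0.217 to 0.364). In the latter class 173 of the 239 PBS UMIs lay in 1 cell, and without the top cells its log2 ratio was -0.20 in place of -1.83. The share of thinned monocytes with Ccl9 was 54.9% (46.7 to 62.9) and 26.9% (20.9 to 33.6), the widest gap between the libraries among the 9 genes in monocytes.

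Ccl6 and Ccl9 were found in the same monocytes. In PBS 68.0% (56.2 to 78.3) of monocytes with Ccl6 had Ccl9 against 42.3% (31.2 to 54.0) without it, and in cmExoaCD11b 38.6% (26.0 to 52.4) against 22.2% (15.7 to 29.9), where the intervals overlap.

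The receptor Ccr1, which binds Ccl3, Ccl5, Ccl6 and Ccl9, was carried mainly by neutrophils. They were at 688 CPM (675 to 701) and 512 CPM (503 to 522), a ratio of 0.745 (0.726 to 0.765), and held 60.8% and 69.8% of Ccr1 UMIs. Of thinned neutrophils 51.8% and 45.7% had a UMI, with intervals that do not overlap, against 1.97% and 0.429% of B cells. Macrophages at 193 and 149 CPM and monocytes at 184 and 172 CPM came next with overlapping intervals. Immature neutrophils were at 106 and 129 CPM (1.21, 1.12 to 1.30), with a log2 ratio of -0.04 in place of 0.27 after thinning. Neutrophils therefore carried both Ccr1 and most of the Ccl3 and Ccl6. All 3 genes were lower in cmExoaCD11b neutrophils, Ccr1 by the smallest factor. Over the alternatives the log2 ratio of Ccr1 in neutrophils ran from -0.48 to -0.08, beside -0.42 in the main result. The ratio of Ccr1 in free RNA was 0.720, and the part of free RNA was not tested.

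The receptor Ccr2, which binds Ccl2 and Ccl7, was highest in monocytes and marks the inflammatory monocyte. Monocytes were at 364 CPM (339 to 391) and 466 CPM (441 to 492), a ratio of 1.28 (1.17 to 1.40), and held 41.7% and 39.1% of its UMIs. CD4 T cells followed at 133 and 123 CPM and other T cells at 123 and 123 CPM, with overlapping intervals, and neither ratio, 0.926 (0.715 to 1.20) and 1.00 (0.727 to 1.39), lay clear of 1. Natural killer cells of cmExoaCD11b were at 167 CPM, an interval that overlaps those of both T cell classes. CD8 T cells were at 73.4 and 105 CPM (1.42, 1.08 to 1.90), and with the ranked-UMI cut-off alone their log2 ratio turned to -0.44. Macrophages were at 81.4 and 108 CPM (1.33, 1.01 to 1.73). Neutrophils had 2.42 and 3.61 CPM, and B cells 1.97 and 1.64 CPM.

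Thinned monocytes with Ccr2 were 27.5% (20.6 to 35.2) and 29.9% (23.6 to 36.7), against 0.199% and 0.402% of neutrophils. Within monocytes, 31.2% of cells with Ccr1 had Ccr2 against 26.4% (18.8 to 35.2) of those without it in PBS, and 28.1% (13.7 to 46.7) against 30.2% (23.4 to 37.7) in cmExoaCD11b. The intervals overlap in both libraries. So while the monocyte class of cmExoaCD11b had less Ccl2, Ccl6 and Ccl9, its Ccr2 was not lower. The make-up of this class differed between the libraries. Its 9 macrophage markers summed to 2940 and 1160 CPM and its 6 monocyte markers to 5400 and 7620 CPM. How far this set the ratios was not tested.

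**Figure D5:**
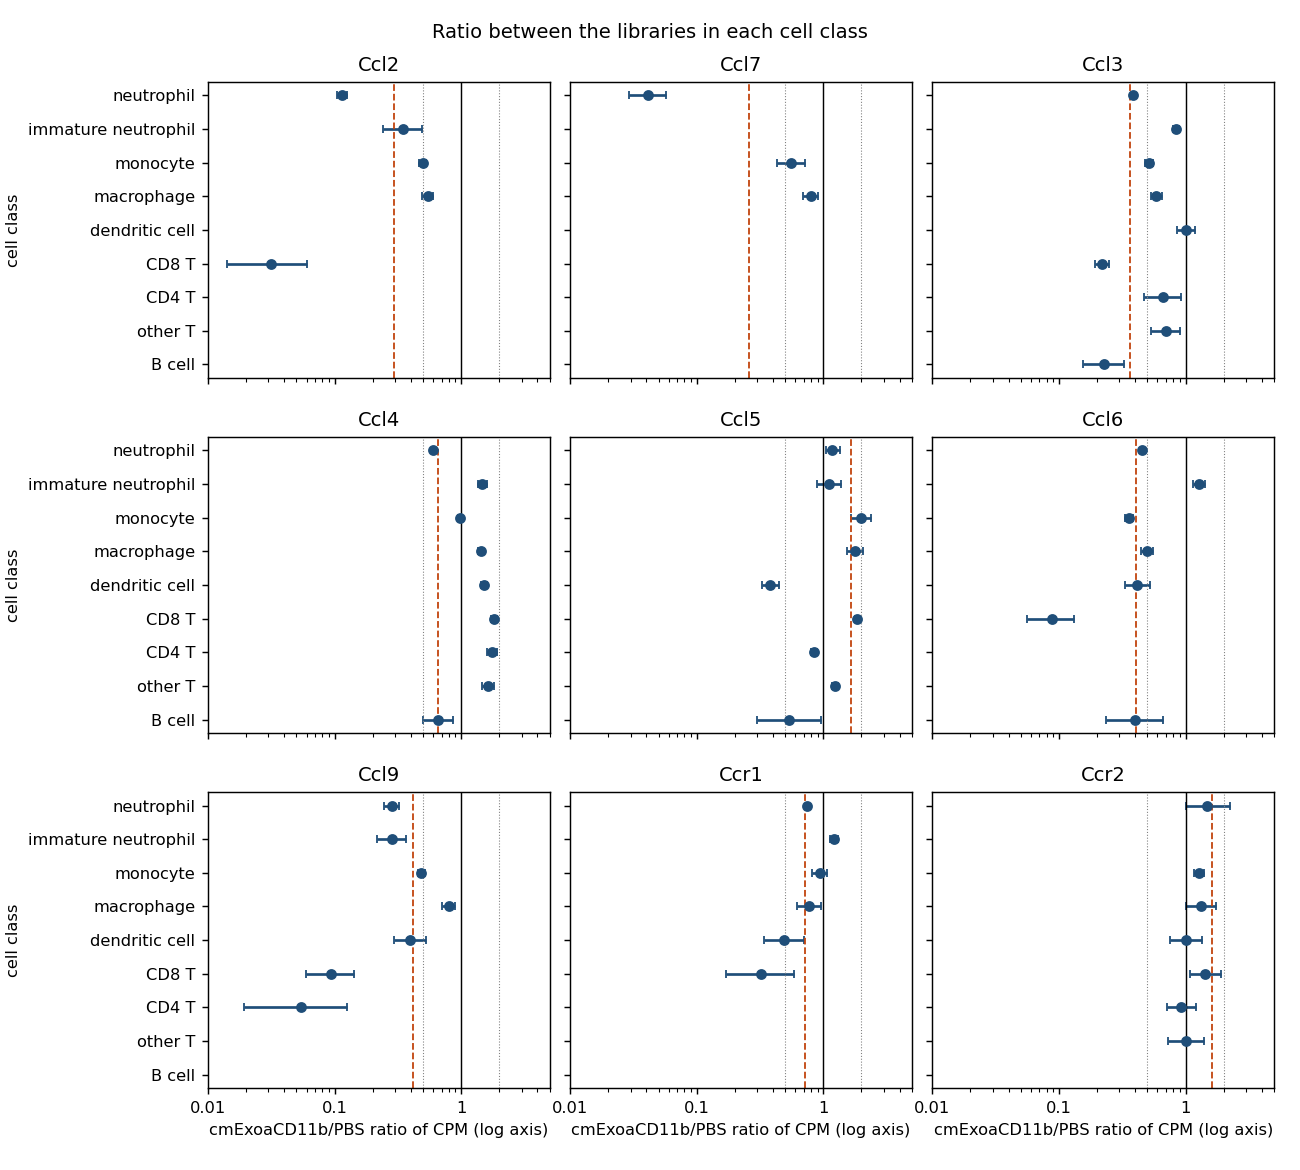
Ratio of the cmExoaCD11b level to the PBS level (log axis) for each CC gene by cell class, as points with 95% counting intervals, for genes with at least 50 UMIs in the class and UMIs in both libraries. Dotted lines mark ratios of 0.5 and 2 and the orange dashed line marks the ratio in empty droplets, and the points lie on both sides of 1 for Ccl4 and Ccl5 but mostly below it for Ccl2, Ccl3, Ccl6 and Ccl9.

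A ratio of at least 2 or at most 0.5, among genes with at least 50 UMIs in the class, was counted for the 9 genes beside all genes. None of the 9 genes was at least 2 times higher in any of these 9 classes. In neutrophils 5 of 9 were lower by that fold (Ccl2, Ccl7, Ccl3, Ccl6 and Ccl9), where 10.6% of all genes passed it in either direction and 5.10% were lower. Neutrophil Ccl3 and Ccl6 stood above the empty droplets of both libraries, and Ccl2, Ccl7 and Ccl9 below them. Empty droplets held Ccl7 at 220 and 56.6 CPM and Ccl9 at 325 and 135 CPM. With free RNA subtracted at 10%, Ccl7 and Ccl9 gave no ratio in neutrophils. The part of free RNA in this count was not tested. In immature neutrophils 2 of 7 were lower, Ccl2 and Ccl9, where 2.94% of genes passed, and 1 of 7 was without the top cells. In monocytes 3 of 9 were lower, Ccl2, Ccl6 and Ccl9, where 5.52% passed. The neutrophil and monocyte counts lie above the share of all genes, and for neutrophils the median log2 ratio was -1.14 for the 9 genes and 0.06 for all genes. Monocytes gave medians of -0.85 and 0.10, and their Ccl2 (0.495) and Ccl9 (0.485) stood close to the line of 0.5. The 9 genes were chosen with earlier results of these data known, so these counts are a description and not independent support.

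Macrophages and dendritic cells, with 50 cells or more in each library, were added after class sizes were seen. Macrophages had 1 of 9 lower, Ccl6, where 8.80% of genes passed, which is near the background. Dendritic cells had 4 of 7 lower, Ccl5, Ccl6, Ccl9 and Ccr1, where 7.77% passed. Their Ccl6, Ccl9 and Ccr1 stood below the empty droplets of both libraries. The ratios of these genes were 0.415, 0.393 and 0.490, beside 0.407, 0.416 and 0.720 in free RNA. Ccl5 stood above the empty droplets in PBS and below them in cmExoaCD11b. In dendritic cells of cmExoaCD11b 68 of the 134 Ccl6 UMIs lay in 1 cell. The part of free RNA in these values was not tested. The median log2 ratio was -0.33 against 0.05 for all genes in macrophages and -1.03 against 0.06 in dendritic cells.

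In lymphocytes the counts rest on few cells or on low levels. CD8 T cells had 5 of 8 lower, Ccl2, Ccl3, Ccl6, Ccl9 and Ccr1, where 7.43% of genes passed. Of the PBS UMIs in these CD8 T cells, 157 of 179 of Ccl2 and 115 of 193 of Ccl6 lay in 1 cell with 13466 UMIs, and 116 of 174 of Ccl9 and 240 of 1003 of Ccl3 lay in another with 42942 UMIs. Without the top cells 3 of 6 were lower. CD4 T cells had 1 of 5 lower, Ccl9, where 4.06% passed, and 54 of its 68 PBS UMIs lay in 1 cell, so that 0 of 4 passed without it. Other T cells had 0 of 4, where 4.79% passed, and B cells 2 of 4, Ccl3 and Ccl6, where 8.51% passed. B cell Ccl3 was at 101 and 23.0 CPM, below the empty droplets' 2250 and 820 CPM.

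Macrophage RNA was present in other classes. Cells that held a macrophage marker above the free-RNA level made up 8.81% and 7.38% of neutrophils and 4.90% and 3.33% of CD8 T cells. Among B cells, used as background for the shares of cells, they made up 7.66% and 17.9%. The 9 macrophage markers summed to 275 and 50.2 CPM in CD8 T cells, with Mrc1 at 0 in PBS and Adgre1 at 0 in cmExoaCD11b. In B cells the sum was 519 and 185 CPM, and in empty droplets it was 6380 and 1120 CPM. Without the marker-holding cells the log2 ratio in neutrophils was -2.89 for Ccl2, -2.85 for Ccl7 and -1.47 for Ccl3, beside -3.12, -4.60 and -1.38 with them. All 3 genes were thus lower in cmExoaCD11b neutrophils with and without those cells.

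The levels of each gene over the 7 classes with at least 100 cells and both libraries, 14 points, were compared with those of 11449 other genes by Pearson correlation of log2(CPM + 10), as a description with no test, since points of 1 library share depth and free RNA. Ccl3 was most like Cxcl2 (r = 0.920), a neutrophil attractant, and Il1b (0.904), which encodes interleukin-1 beta. Ccl6 was most like Clec4n (0.978), a C-type lectin receptor, and Tgm2 (0.966). Ccl5 was most like Klk8 (0.989) and Itga1 (0.986), an integrin chain of tissue T cells, and Ccl4 like Abr (0.963) and Errfi1 (0.948). Ccl2 was most like E230029C05Rik (0.928) and Stard9 (0.925), and Ccl7 like Ppbp (0.970) and Cysltr1 (0.941). Macrophages, with 71 cells in cmExoaCD11b, are not among the 7 classes. Their levels, among the highest for Ccl2, Ccl7 and Ccl9, did not enter the correlations. Of the Ccl7 UMIs in PBS neutrophils, 459 of 634 lay in 1 cell. Ccl9 was most like Upp2 (0.937) and E230029C05Rik (0.927). Ccr1 was most like Tnfaip2 (0.987) and Clec4e (0.986), a lectin receptor of myeloid cells, and Ccr2 like S100a4 (0.971) and Npc2 (0.953).

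Other CC ligands and receptors were read from a list of 25 genes, which also holds atypical chemokine receptors such as Ackr3. Of the list, Ccl11, Ccl19, Ccl20, Ccl28, Ccr8, Ackr1, Ackr2 and Ackr4 had fewer than 50 UMIs in the kept cells. In neutrophils 1 of 6 tested list genes was at most 0.5, Ccl24, where 10.6% of all genes passed the fold, and 57 of its 73 PBS UMIs lay in 1 cell. Ccrl2, an atypical chemokine receptor of activated neutrophils, was at 1160 and 692 CPM there (0.598, 0.585 to 0.611). Monocytes had 1 of 6 higher and 2 of 6 lower, where 5.52% of all genes passed. Ccl12, another ligand of Ccr2, was the higher one at 17.0 and 54.1 CPM (3.18, 2.21 to 4.69), with 20 of its 37 PBS UMIs in 1 cell. Ackr3, a scavenging receptor, had 61 UMIs in PBS monocytes and none in cmExoaCD11b, a ratio of at most 0.0384 by the floor of 3 UMIs per library.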

How the data were processed

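Droplet libraries made with the 10x 3' v3.1 kit were analysed for PBS and cmExoaCD11b, 1 library each, grouped by the treatment label. The authors deposited raw UMI counts per gene and barcode, neither filtered nor normalized, with 644248 and 723594 barcodes and 67143628 and 81288480 UMIs. The file headers name Cell Ranger 7.1.0 and the methods name 3.0.2. The genome build is not given in the sources used here.

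Cells were called by a ranked-UMI cut-off (1 in 10 of the 99th percentile of the top 3000 barcodes) plus a multinomial test against empty droplets (barcodes ranked 45000 to 90000) for barcodes with at least 500 UMIs (10000 simulations, false discovery rate 0.01). A kept cell had 200 genes or more, and mitochondrial UMIs made up no more than 20% of it. Scrublet's automatic threshold marked 0 cells, so the highest scores were removed at 0.8% per 1000 cells, 422 and 454 cells. This left 6840 and 7082 cells.

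A marker counted as held when its UMIs exceeded the 95% Poisson point of 20% free RNA at the cell's depth. Gates needed 3 held markers for neutrophils, immature neutrophils, macrophages, monocytes and dendritic cells and 2 for other lineages, set from markers and class sizes without the values of the 9 genes. T cells were split by Cd8a or Cd8b1 and Cd4. UMIs were summed per class and library, with exact Poisson intervals for levels, exact conditional intervals for ratios and Clopper-Pearson intervals for shares. PCR and capture errors are not covered. Cells under 1000 UMIs were left out of thinned shares.

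Genes named are the 9, the other listed genes with at least 50 UMIs and gate markers. The 2 genes most correlated with each of the 9 (at least 200 UMIs, no marker) are also named. Some items of the list and the design are not reported here. The 9 genes and the lists were chosen with earlier results of these data known. Besides 12 alternatives chosen at the outset, 3 were added after seeing the data, and so were the classes with at least 50 cells. The code for ratios, their intervals and the fold was tested on simulated counts, gating on a few built cases and thinning on real cells. Cell calling was not among these tests. Python 3.11.15, scanpy 1.11.5, numpy 2.4.6, scipy 1.17.1 and pandas 2.3.3 were used.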

Additional observations from a re-analysis of the deposited data

Results flagged for a closer look

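Among classes with at least 100 cells in both libraries, ratios of cmExoaCD11b to PBS lay on opposite sides of 1 for 4 of the genes. Their intervals were clear of 1 on both sides. The share of all genes that meet the same rule is not given, so the count of 4 does not set these genes apart. Smaller classes were left out of this comparison. Among them, Ccl5 had a ratio of 0.382 (0.329 to 0.444) in dendritic cells. Ccl2 had a ratio of 9.43 (4.43 to 23.0) in epithelial cells, where 40 of the 50 cmExoaCD11b UMIs lay in 1 cell. The difference between the classes was not tested, since each library is a single sample.

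Ccl4 had a ratio of 1.81 in CD8 T cells and 0.601 in neutrophils, and the log2 ratio in CD8 T cells turned to -0.29 with the ranked-UMI cut-off alone. Ccl5 had a ratio of 1.99 in monocytes and 0.536 in B cells, where 27 and 26 UMIs were counted, and the log2 ratio in B cells turned to 0.36 with 1 marker more in each gate and to 0.70 with cells of 2 lineages kept. Ccl6 had a ratio of 1.28 in immature neutrophils and 0.0874 in CD8 T cells, where 115 of the 193 PBS UMIs lay in 1 cell. Its log2 ratio in immature neutrophils turned to -0.12 with cells of 2 lineages kept and to -0.04 with no doublets removed. Ccr1 had a ratio of 1.21 in immature neutrophils and 0.321 in CD8 T cells, where 35 and 18 UMIs were counted, and with cells thinned both turned, to log2 ratios of -0.04 and 0.10.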

How the results depend on the processing

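No paired analysis was possible because each condition has 1 library and no test was run. Of 646 recomputed ratios over 62 genes and classes, 450 stayed within the main interval, 179 moved outside it and 17 turned direction. Of the 54 ratios whose interval excludes 1, 40 held their direction in every alternative that gave a value and 14 did not, and 20 recomputations gave no value, 19 of them under subtraction of free RNA at 10% of a class's UMIs. The cause of each change below was not tested. Depth limits the lymphocyte values of the myeloid genes, most of which rest on fewer than 200 UMIs.

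Log2 ratios that turned were as follows. With the ranked-UMI cut-off alone they were 0.42 for Ccl3 in CD4 T cells, -0.29 for Ccl4 and -0.44 for Ccr2 in CD8 T cells, and for Ccl5 -0.21 in neutrophils and -0.06 in other T cells. With no doublets removed they were 0.07 for Ccl3 in other T cells and -0.04 for Ccl6 in immature neutrophils. With 1 marker more in each gate Ccl5 in B cells was 0.36. With cells of 2 lineages kept they were -0.01 for Ccl4 and -0.12 for Ccl6 in immature neutrophils, -0.02 for Ccl4 and 0.03 for Ccl5 in CD4 T cells, and 0.70 for Ccl5 in B cells. With cells thinned they were 0.17 for Ccl3 in other T cells, and for Ccr1 -0.04 in immature neutrophils and 0.10 in CD8 T cells. With free RNA subtracted Ccl3 in immature neutrophils was 4.88, where almost none of the PBS level remained.

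The number of the 9 genes past the fold, in either direction, moved by over 1.5 times as follows. Each count is given beside the number of genes that could be tested, which differed between the alternatives. The share of all genes past the fold is not given for these alternatives, so the counts are a description. The ranked-UMI cut-off alone gave 6 of 9 in monocytes, 2 of 9 in macrophages and 2 of 5 in CD4 T cells. It gave 1 of 2 in other T cells and 1 of 2 in B cells. Without doublet removal it was 5 of 9 in monocytes, 3 of 6 in other T cells and 5 of 5 in B cells. A gate with 1 marker more gave 1 of 7 in immature neutrophils and 4 of 7 in CD4 T cells. It gave 3 of 7 in other T cells and 4 of 5 in B cells. Keeping cells of 2 lineages gave 5 of 9 in monocytes and 6 of 9 in CD4 T cells. It gave 3 of 7 in other T cells and 7 of 8 in B cells. Thinned cells gave 1 of 4 in immature neutrophils and 1 of 2 in dendritic cells. They gave 0 of 8 in macrophages, 0 of 4 in CD8 T cells and 0 of 2 in CD4 T cells. None of the 9 genes could be tested in thinned B cells. Subtracting free RNA gave 0 of 9 in macrophages and 1 of 4 in other T cells, and none of the 9 genes could be tested in B cells. A fold of 1.5 gave 6 of 9 in monocytes, 4 of 9 in macrophages and 3 of 5 in CD4 T cells. It gave 1 of 4 in other T cells and 4 of 4 in B cells. A minimum of 10 UMIs gave 5 of 9 in CD4 T cells, 2 of 8 in other T cells and 4 of 7 in B cells. No minimum gave 5, 3 and 5, each of 9. Chosen after seeing the data, leaving out the top cell gave 1 of 7 in immature neutrophils, 3 of 6 in CD8 T cells and 0 of 4 in CD4 T cells. Leaving out cells with a macrophage marker, also chosen after seeing the data, gave 0 of 4 in CD4 T cells. The neutrophil count was within 1.5 times of 5 in every alternative. With free RNA subtracted, Ccl7 and Ccl9 gave no ratio in neutrophils, so the count there does not rest on ratios of all 5 genes.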

Other observations

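Ccl17, a ligand of Ccr4, was at 598 and 358 CPM in dendritic cells of PBS and cmExoaCD11b (0.599, 0.526 to 0.681), with 278 of the 490 cmExoaCD11b UMIs in 1 cell. Ccl12 was at 341 and 311 CPM in macrophages (0.913, 0.784 to 1.06) and Ccl8, which also draws monocytes, was at 134 and 33.1 CPM (0.247, 0.154 to 0.379), with 201 of its 471 PBS UMIs in 1 cell. Ccl24, an eosinophil attractant, was at 135 and 311 CPM, but 188 of its 207 cmExoaCD11b UMIs lay in 1 cell. Of the listed genes tested, 2 of 9 were higher and 2 of 9 lower in macrophages, where 8.80% of all genes passed the fold, and 0 of 5 passed it in dendritic cells, where 7.77% did.

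Among lymphocytes, Ccr7, the receptor that brings B cells and T cells to lymph nodes, was at 397 and 191 CPM in B cells (0.482, 0.417 to 0.558), and Ccr6 was at 59.0 and 66.3 CPM there (1.12, 0.818 to 1.56). Ccl1 was at 104 and 39.2 CPM in CD8 T cells (0.377, 0.272 to 0.519), in 9 and 7 cells with a UMI. Ccr10 was at 112 and 45.0 CPM in plasma cells (0.402, 0.296 to 0.546), which numbered 36 and 87.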
